A study of Mus musculus with 5 samples.

Results

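The mitochondrial chromosome carries its own genes for core subunits of the respiratory chain, and 10 of them were followed here across every library: mt-Nd1, mt-Nd2, mt-Nd4, mt-Nd5 and mt-Nd6 of complex I, mt-Cytb of complex III, mt-Co1, mt-Co2 and mt-Co3 of complex IV, and mt-Atp6 of complex V. They were taken by symbol from a table of 56748 genes, and all 10 passed the filter on low counts that left 17724 genes for testing. The chromosome holds 37 genes in the table, of which 13 encode proteins, 22 encode tRNAs and 2 encode rRNAs. The members therefore leave out the protein genes mt-Nd3, mt-Nd4l and mt-Atp8, whose values are given further on.

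RNA came from CD11b-positive cells of mouse brain without the cerebellum, at 7 months of age, and was sequenced in bulk with 1 library per mouse. The Cd5l-transgenic group (5xFAD/Cd5l tg/wt) held 3 mice, replicates 1, 2 and 3. They carried the 5xFAD transgenes, which express mutant human amyloid precursor protein and presenilin genes, together with 1 transgenic allele that forces expression of mouse Cd5l from the human PDGF-B promoter. The 5xFAD group held 2 mice, replicates 1 and 3, with the 5xFAD transgenes alone, so both groups are amyloid models. Wild-type mice are not analysed here. CD5L is a secreted scavenger-receptor family protein of macrophages, and the PDGF-B promoter is best known for driving transgenes in neurons. The sources used here do not say how the CD11b-positive cells were isolated.

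Respiratory complexes I, III and IV pump protons across the inner mitochondrial membrane, and complex V uses the gradient to make ATP. Each is assembled from a few subunits encoded in the mitochondrion and many more encoded in the nucleus. Both strands of the mitochondrial chromosome are transcribed as long precursors, which are cut mostly at the tRNAs that lie between the genes. Most of the messengers then receive short poly(A) tails. In microglia, the resident macrophages of the brain and the main CD11b-positive cells there, the balance of oxidative phosphorylation and glycolysis is known to shift with activation.

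Libraries held 30798377 to 34794617 counts, so that 1 count was worth 0.0287 to 0.0325 CPM (counts scaled to the library total), and all levels below are CPM further scaled by TMM factors unless another scale is named. The transgene read as labelled, with Cd5l at 234, 335 and 195 CPM in the Cd5l-transgenic libraries, against 1.52 and 0.254 CPM in the 5xFAD libraries. This 286-fold difference in means (log2 fold change 8.23, SE 0.66) was itself not called by the edgeR quasi-likelihood test, with an adjusted p of 0.765, so a gene not called in this design may still differ. Microglial markers summed to between 33683 and 35786 CPM in the Cd5l-transgenic libraries and to 35811 and 31239 CPM in the 5xFAD libraries, with 12 of 12 markers tested. Among 8 oligodendrocyte markers, all detected, the summed level was 1077, 4239 and 365 CPM in Cd5l-transgenic replicates 1, 2 and 3, against 367 and 339 CPM in 5xFAD replicates 1 and 3. The 10 choroid plexus and ependymal markers, all detected, summed to 442, 1023 and 551 CPM, against 707 and 4306 CPM in 5xFAD replicates 1 and 3. Cd5l-transgenic replicate 2 and 5xFAD replicate 3 thus stood apart from the other libraries in RNA of other brain cell types. The members' log2 fold changes without both are given at the end, and some other results without 1 or both. Erythroid markers, 5 of 5 detected, summed to 7.40, 20.8 and 8.53 CPM, against 2.41 and 1.47 CPM in the 5xFAD libraries, and 13 immediate early and dissociation genes to 13139, 11837 and 18364 CPM, against 18341 and 17697 CPM. In bulk RNA, fewer cells of a type and less RNA per cell cannot be told apart.

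No member passed the test between the genotypes, and each difference was small beside the spread between mice. The edgeR quasi-likelihood test with Benjamini-Hochberg adjustment called 0 of 10 members and 0 of all genes tested (0%). At an unadjusted p under 0.05 it passed 475 genes (2.68%) and again 0 members, and the DESeq2 Wald test called 10 genes (0.0587% of 17036), none a member. For 10 of 10 members the adjusted p of the edgeR test was 0.999. The libraries overlapped between genotypes for every member, whereas 15.9% of all genes tested had groups that did not overlap, 7.2% with all Cd5l-transgenic libraries higher and 8.69% with all lower. Log2 fold changes, Cd5l-transgenic minus 5xFAD, lay above 0 for 7 members and below 0 for 3, from −0.12 to 0.21 with a median of 0.06. Of all genes tested 42.9% lay above 0, with a median of −0.03.

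What did vary was the level from mouse to mouse, and it varied for the members together. All 10 were higher in 5xFAD replicate 3 than in 5xFAD replicate 1. Seen over all libraries, 7 were highest in Cd5l-transgenic replicate 2 and 3 in 5xFAD replicate 3, while 5xFAD replicate 1 and Cd5l-transgenic replicate 3 were the lowest pair for 9 of 10. The members shared their chromosome and the library scaling, and all but mt-Nd6 the precursors of the same strand, so they are not independent of one another. The same pair of libraries that were high in the members, Cd5l-transgenic replicate 2 and 5xFAD replicate 3, were those high in oligodendrocyte or choroid plexus markers. The part of those cells' RNA in the members' levels was not tested.

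**Figure D1:**
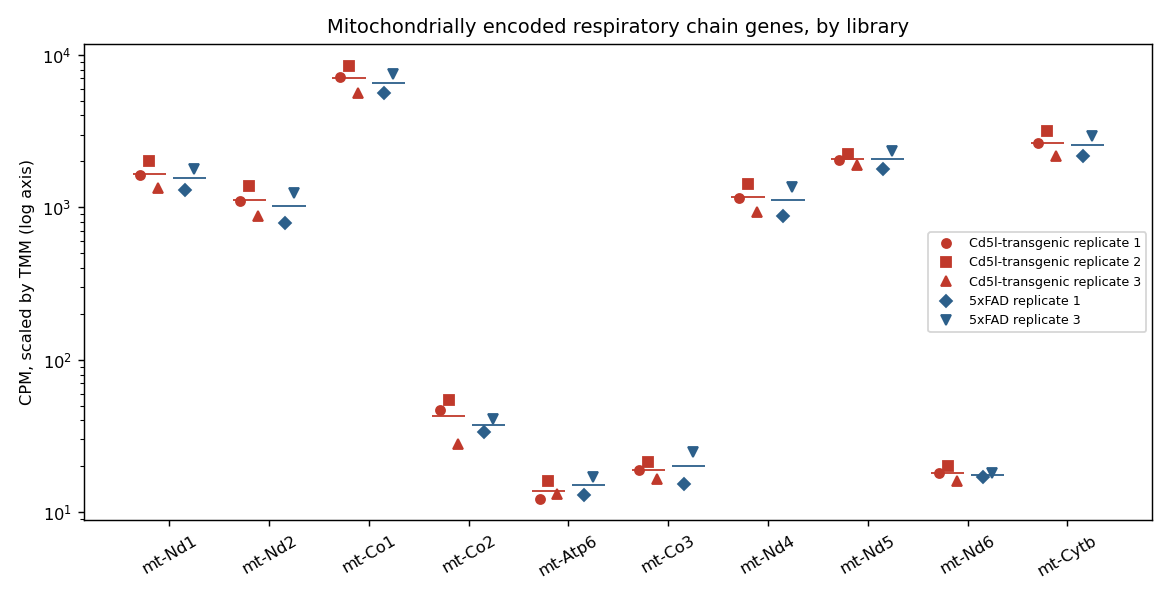
Level of each member in each library in CPM scaled by TMM on a log axis, with genes in their order on the mitochondrial chromosome. Red points are the 3 Cd5l-transgenic libraries, blue points the 2 5xFAD libraries and bars the group means; the groups overlap for all 10 members, and mt-Co1 is the highest gene in every library.

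**Figure D2:**
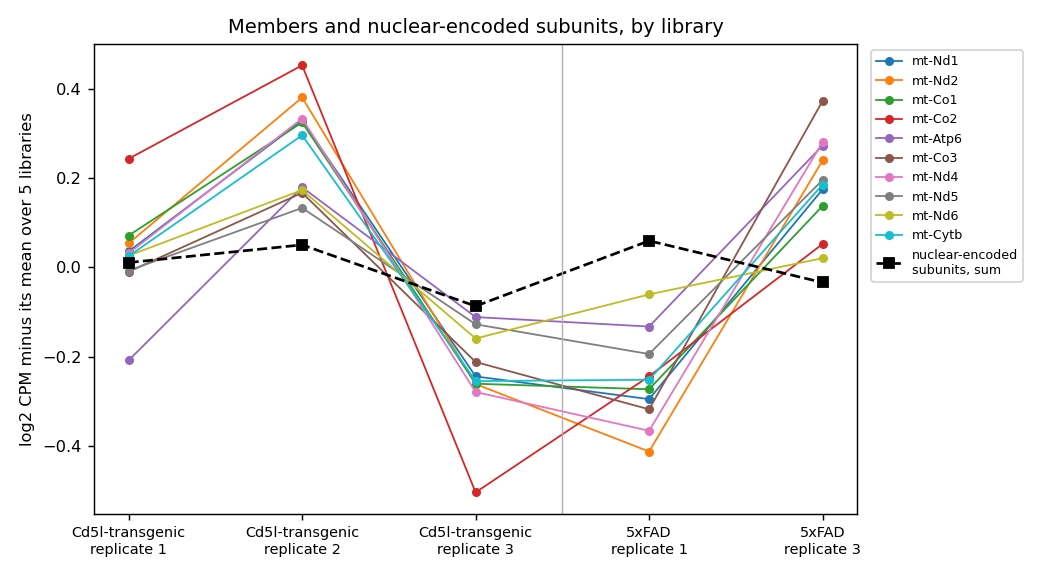
Log2 CPM of each member minus its own mean over the 5 libraries, with the Cd5l-transgenic libraries left of the vertical line and the 5xFAD libraries right of it. All 10 members are higher in 5xFAD replicate 3 than in 5xFAD replicate 1, and the summed nuclear-encoded subunits (dashed) stay within a 1.11-fold range.

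Together the members took 1.58%, 1.91% and 1.30% of all counts in Cd5l-transgenic replicates 1, 2 and 3, against 1.20% and 1.76% in 5xFAD replicates 1 and 3. The lowest and the second highest share were thus both 5xFAD mice, with the Cd5l-transgenic mice between and above them. The mean was 1.60% ± 0.308 in Cd5l-transgenic libraries and 1.48% ± 0.393 in 5xFAD libraries (SD, n = 3 and n = 2). That difference of 0.120 percentage points is smaller than either SD, while the highest library was 1.59 times the lowest. With 3 mice against 2 an exact two-sided permutation test cannot go below p = 0.1, so single summed values of this kind are given without a test. Which 5xFAD mouse is kept sets the sign: the difference was −0.158 percentage points without 5xFAD replicate 1 and 0.398 without 5xFAD replicate 3. It was −0.0373 without Cd5l-transgenic replicate 2.

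Sequence bears on how well each member can be counted, because part of the mitochondrial chromosome has been copied into nuclear chromosome 1. In the mouse annotation (GENCODE M21) a stretch on the minus strand of chromosome 1 holds a run of unprocessed pseudogenes. Among them are copies that match mt-Co1, mt-Co2, mt-Atp6, mt-Co3 and mt-Nd4. Copies of mt-Nd3 and mt-Nd4l, which are not members, lie between those of mt-Co3 and mt-Nd4. The copies of mt-Co2 (Gm28661), mt-Atp6 (Gm10925) and mt-Co3 (Gm28437) were identical to the gene over 681 of 684, 678 of 681 and 783 of 784 bases. The copy of mt-Nd4 (Gm28439) was identical over 876 of 1378 bases, or 63.57% of the gene. The copy of mt-Co1 (Gm29216) covered 492 bases, or 31.84%, at 98.78% identity. In the authors' table, on build GRCm39, these 5 copies lie in order from chr1:24650616-24651491 (Gm28439) to chr1:24654787-24655278 (Gm29216). Searched at 95% identity over at least 100 bases, 7 of 10 members had a match in another annotated transcript, and mt-Nd1, mt-Nd6 and mt-Cytb had none. Weaker matches were those of mt-Co1 to Gm13340 on chromosome 2 (97.605% over 1545 bases), of mt-Co2 to Gm13341 on chromosome 2 (95.906% over 684 bases), of mt-Nd2 to Gm13339 on chromosome 2 (96.667% over 510 bases) and of mt-Nd5 to Gm4076 on chromosome 13 (95.178% over 954 bases).

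The start of the shared stretch of mt-Co1 is shown because it is where gene and copy can be told apart, and the start of mt-Atp6 because there they cannot. Positions count from 1 at the first base of the gene, and capitals mark bases that differ between mt-Co1 (chrM:6381-6440) and its copy. The 6 differences are T1056A, C1057T, A1059G, A1060G, C1062A and A1066T, with the gene's base first, and they all fall within this stretch. In mt-Atp6 (chrM:7927-7986) and its copy every letter is the same.
mt-Co1, bases 1054 to 1113: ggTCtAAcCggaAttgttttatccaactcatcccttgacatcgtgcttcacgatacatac
Gm29216, bases 1 to 60: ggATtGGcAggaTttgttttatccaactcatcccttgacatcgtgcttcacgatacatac
mt-Atp6, bases 1 to 60: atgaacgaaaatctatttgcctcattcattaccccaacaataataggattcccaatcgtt
Gm10925, bases 1 to 60: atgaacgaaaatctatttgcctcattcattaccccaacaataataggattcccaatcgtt

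The 3 members that lie almost whole in an identical copy had far lower counts per length than the other members of the heavy strand, in every library. Per kilobase of gene, mt-Co1 had 3630 to 5493 CPM over the 5 libraries, mt-Cytb 1886 to 2763, mt-Nd1 1353 to 2086, mt-Nd5 983 to 1289, mt-Nd2 763 to 1323 and mt-Nd4 633 to 1028. Then came mt-Co2 with 40.9 to 79.3 CPM per kilobase, mt-Nd6 with 30.7 to 38.6, mt-Co3 with 19.6 to 31.6 and mt-Atp6 with 18.0 to 25.1. Neighbours in this order whose ranges overlapped were mt-Cytb with mt-Nd1, mt-Nd5 with mt-Nd2, mt-Nd2 with mt-Nd4, mt-Nd6 with mt-Co3 and mt-Co3 with mt-Atp6. All other neighbours were separate. Read over the bases outside the copy alone, if all its counts came from there, mt-Co1 would stand at 5326 to 8060 CPM per kilobase and mt-Nd4 at 1737 to 2821.

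The copies themselves were counted at levels near those of these 3 genes. Gm10925 had 514, 736 and 594 counts in the Cd5l-transgenic libraries, against 479 and 638 in the 5xFAD libraries, where mt-Atp6 had 379, 511 and 433 counts, against 381 and 606. The copy was thus above the gene in 5 of 5 libraries. The counts of mt-Co2 were 2.46 to 3.02 times those of Gm28661, and the counts of mt-Co3 were 1.86 to 2.96 times those of Gm28437. For mt-Nd4 and mt-Co1, with sequence outside the copy, the gene had 121 to 144 and 854 to 1119 times the counts of the copy. The sources used here do not say how reads that match several places were treated. The counts of mt-Co2, mt-Co3 and mt-Atp6 are therefore uncertain as levels, since an identical read can be assigned to either place or dropped, and the part of this in their low counts was not tested. On the same strand, mt-Atp6 (chrM:7927-8607) also overlaps mt-Atp8 (chrM:7766-7969) and shares base 8607 with mt-Co3 (chrM:8607-9390). The part of reads that lie in both neighbours was not tested either.

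**Figure D3:**
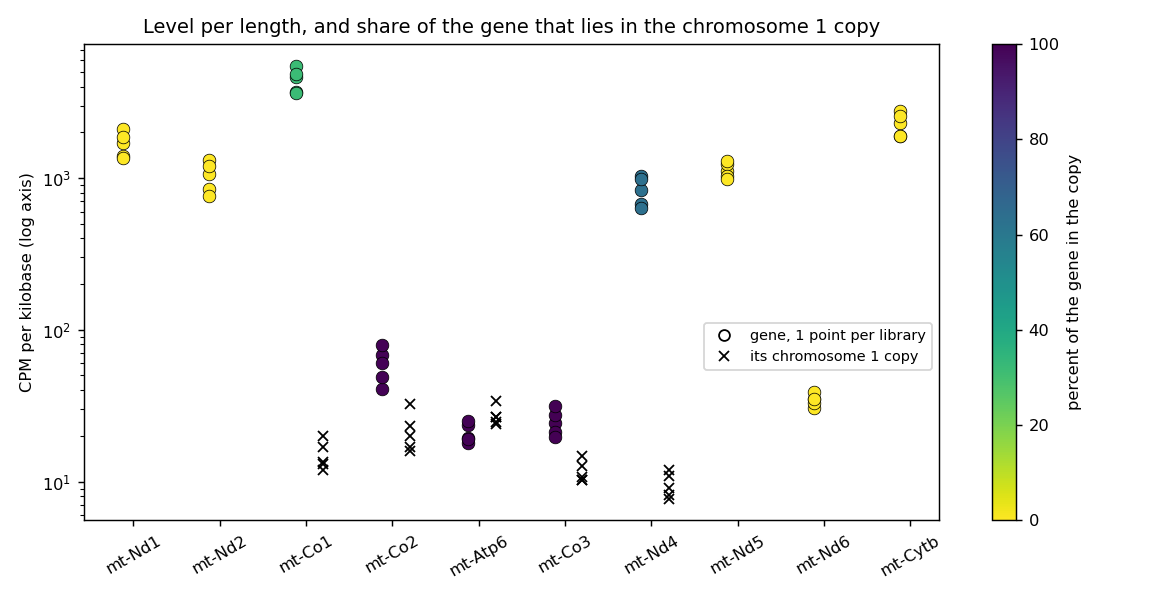
CPM per kilobase of gene on a log axis for each member in gene order, 1 circle per library, coloured by the percent of the gene that lies in its chromosome 1 copy; crosses are the CPM per kilobase of that copy. The 3 dark genes (mt-Co2, mt-Atp6 and mt-Co3) lie between 18.0 and 79.3 CPM per kilobase, close to their copies, while the other heavy-strand members lie between 633 and 5493.

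Complex I takes electrons from NADH, and its 5 members here form part of the proton-pumping membrane arm. The first of them on the chromosome, mt-Nd1 (chrM:2751-3707), had 1629, 1996 and 1342 CPM in the Cd5l-transgenic libraries, against 1295 and 1794 CPM in the 5xFAD libraries. Both groups had a low and a high mouse and overlapped over most of their range. Its log2 fold change was 0.10 (SE 0.22, 95% interval −0.44 to 0.64).

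For mt-Nd2 (chrM:3914-4951) the values were 1095, 1373 and 880.0 CPM in Cd5l-transgenic libraries, against 792.5 and 1245 CPM in 5xFAD libraries. It had the widest spread of the members with no identical copy, 1.73-fold between 5xFAD replicate 1 and Cd5l-transgenic replicate 2, and its log2 fold change was 0.13 (SE 0.26). mt-Nd4 (chrM:10167-11544), another antiporter-like subunit of the membrane arm, had 1149, 1416 and 926.3 CPM in Cd5l-transgenic libraries, against 872.2 and 1365 CPM in 5xFAD libraries. The order of the mice was that of mt-Nd2, and the log2 fold change was 0.06 (SE 0.26).

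mt-Nd5 (chrM:11742-13565), the longest of the members and the far end of the proton-pumping arm, had 2042, 2251 and 1879 CPM in Cd5l-transgenic libraries, against 1794 and 2351 CPM in 5xFAD libraries. Here the 5xFAD mice held both the lowest and the highest value, and the log2 fold change was −0.01 (SE 0.16, 95% interval −0.39 to 0.37). Over the 5 libraries it varied 1.31-fold.

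mt-Nd6 is the exception among the members, as the protein gene on the other strand. Its 3′ end overlaps that of mt-Nd5 by 14 bases, shown in capitals, and each line is written 5′ to 3′ on the gene's own strand (chrM:13526-13565 on the plus strand and chrM:13552-13591 on the minus strand).
mt-Nd5, last 40 bases: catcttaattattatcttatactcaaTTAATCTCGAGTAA
mt-Nd6, last 40 bases: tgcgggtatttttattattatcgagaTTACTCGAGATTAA

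mt-Nd6 (chrM:13552-14070) had 18.1, 20.0 and 15.9 CPM in Cd5l-transgenic libraries, against 17.0 and 18.0 CPM in 5xFAD libraries, from 503 to 639 counts. The 5xFAD mice both lay within the range of the Cd5l-transgenic mice, and the log2 fold change was 0.04 (SE 0.13, 95% interval −0.27 to 0.35). It varied least of all members, 1.26-fold. Set against the other 9 members within each library, mt-Nd6 made up 1.15, 1.07 and 1.23 counts per 1000 in the Cd5l-transgenic libraries, against 1.35 and 1.05 in the 5xFAD libraries. The ratio was highest in 5xFAD replicate 1 and Cd5l-transgenic replicate 3, the libraries where the summed members were lowest. Those other members are its denominator and mt-Nd6 varied little, so this inverse order largely follows from how the ratio is built. The sources used here do not say whether counting used strand, and antisense precursor reads may be included.

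Complex III passes electrons from ubiquinol to cytochrome c, and mt-Cytb (chrM:14145-15288), its cytochrome b, is the one subunit made in the mitochondrion. It had 2620, 3161 and 2158 CPM in Cd5l-transgenic libraries, against 2162 and 2928 CPM in 5xFAD libraries. The lowest Cd5l-transgenic mouse and the lowest 5xFAD mouse were almost level, and the log2 fold change was 0.06 (SE 0.21). As a share of the member counts, mt-Cytb took 16.6%, 16.8% and 16.7% in Cd5l-transgenic libraries, against 17.2% and 17.0% in 5xFAD libraries. All 3 Cd5l-transgenic libraries were lower in this share, the 1 of the 10 member shares whose groups did not overlap, beside 15.9% of all genes tested in CPM. The difference of the group means was −0.439 to −0.265 percentage points when each library was left out in turn.

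Complex IV reduces oxygen, and mt-Co1 (chrM:5328-6872) holds its catalytic centre. It was the most abundant member, with 7120, 8487 and 5656 CPM in Cd5l-transgenic libraries, against 5608 and 7454 CPM in 5xFAD libraries. These values rested on 165502 to 270613 counts, so counting error was small beside the spread between mice. The means were 7088 ± 1416 CPM in Cd5l-transgenic libraries and 6531 ± 1306 CPM in 5xFAD libraries (SD, n = 3 and n = 2), and the log2 fold change was 0.12 (SE 0.22, 95% interval −0.42 to 0.66). The gene alone made up 43.2% to 45.2% of the member counts. Without it the other 9 members still took 0.867%, 1.05% and 0.730% of all counts in Cd5l-transgenic libraries, against 0.666% and 0.996% in 5xFAD libraries, so the same mice were high and low.

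mt-Co2 (chrM:7013-7696), which takes electrons from cytochrome c, had 46.9, 54.3 and 28.0 CPM in Cd5l-transgenic libraries, against 33.5 and 41.1 CPM in 5xFAD libraries. Both 5xFAD mice fell inside the Cd5l-transgenic range, which was the widest of all members at 1.94-fold, and the log2 fold change was 0.21 (SE 0.29, 95% interval −0.54 to 0.95). mt-Co3 (chrM:8607-9390), a structural subunit, had 19.0, 21.5 and 16.5 CPM in Cd5l-transgenic libraries, against 15.3 and 24.8 CPM in 5xFAD libraries. Here the 5xFAD mice enclosed the others, and the log2 fold change was −0.08 (SE 0.23), or 0.03 with the counts of the copies added, an alternative chosen after seeing the data.

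Complex V makes ATP, and mt-Atp6 (chrM:7927-8607) forms the proton channel next to its ring of c subunits. It had 12.2, 16.0 and 13.1 CPM in Cd5l-transgenic libraries, against 12.9 and 17.1 CPM in 5xFAD libraries, from 379 to 606 counts. The lowest mouse was Cd5l-transgenic replicate 1, unlike for any other member. Its log2 fold change was −0.12 (SE 0.18, 95% interval −0.57 to 0.32). It was 0.04 with the counts of the copies added, an alternative chosen after seeing the data, and 0.093 without 5xFAD replicate 3. The sign is therefore not settled.

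**Figure D4:**
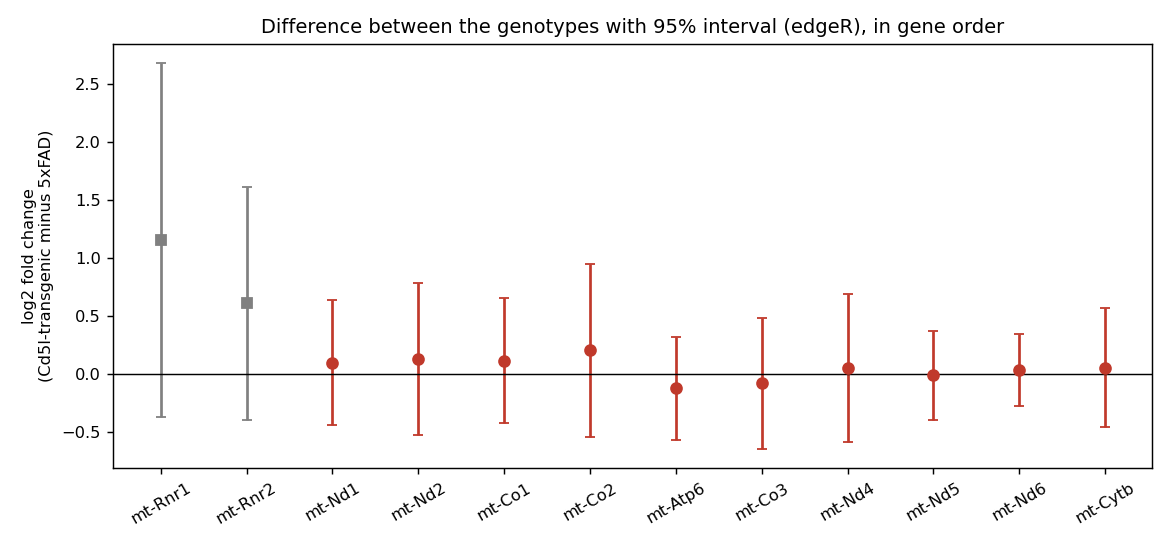
Log2 fold change of each member (red circles) and of both mitochondrial rRNAs (grey squares), Cd5l-transgenic minus 5xFAD, with its 95% interval from the edgeR fit, in the order of the genes on the chromosome. Every interval includes 0, and the members lie between −0.12 and 0.21 while mt-Rnr1 lies at 1.16.

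Within the members, the make-up by complex varied little for the abundant complexes. Complex I took 37.7%, 37.5% and 39.0% of the member counts in Cd5l-transgenic libraries, against 37.9% and 39.3% in 5xFAD libraries. Complex IV took 45.6%, 45.6% and 44.1%, against 44.9% and 43.6% in 5xFAD libraries. The groups overlapped in both. Complex III is mt-Cytb, whose share is given above and did not overlap. Complex V, which is mt-Atp6 alone, took 0.0778%, 0.0853% and 0.101% in Cd5l-transgenic libraries, against 0.102% and 0.0992% in 5xFAD libraries, an overlapping range of 1.32-fold.

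The ends of the genes differ in a way that ties them to polyadenylation. Of the 10 members, 3 encode only the first letter of their stop codon, which is completed by the added tail, as is textbook knowledge for mitochondrial messengers. They are shown by their last 20 bases, with the encoded part of the stop in capitals, at chrM:11525-11544, chrM:9371-9390 and chrM:15269-15288.
mt-Nd4: aattacaggcctgacaataT
mt-Co3: catttattgatgaggatctT
mt-Cytb: aatactaaaattatatccaT

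The other 7 end in a whole TAA or TAG. By level per kilobase mt-Cytb was second highest and mt-Co3 second lowest. The counts of mt-Co3 are uncertain as levels, so these ranks cannot show whether the 3 differ from the others. All sequences are those of the GENCODE M21 transcripts on build GRCm38, and the 37 mitochondrial genes have the same positions there as in the authors' table.

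The rRNAs of the mitochondrial ribosome, cut from the same heavy-strand precursors upstream of mt-Nd1, did not follow the members in full. mt-Rnr1, the small-subunit rRNA, had 212.7, 448.2 and 111.7 CPM in Cd5l-transgenic libraries, against 97.7 and 133.4 CPM in 5xFAD libraries. mt-Rnr2, the large-subunit rRNA, had 545.8, 885.2 and 371.4 CPM in Cd5l-transgenic libraries, against 324.5 and 461.9 CPM in 5xFAD libraries. Both overlapped between groups, and the log2 fold changes of 1.16 (SE 0.60) and 0.61 (SE 0.40) had an adjusted p of 0.999 in the edgeR test.

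Set against the members of the same library, however, the groups did not overlap, which in CPM was so for 15.9% of all genes tested. mt-Rnr1 stood at 1.35, 2.38 and 0.865 counts per 100 member counts in the Cd5l-transgenic libraries, against 0.775 and 0.774 in the 5xFAD libraries. mt-Rnr2 stood at 3.47, 4.71 and 2.88 per 100, against 2.57 and 2.68 in the 5xFAD libraries. The highest of both was Cd5l-transgenic replicate 2, the library with the most oligodendrocyte marker RNA, and the next was Cd5l-transgenic replicate 1, which had the next most. All 4 nuclear-retained long noncoding RNAs, Malat1 among them, were detected and summed to 1630, 1441 and 1549 CPM in Cd5l-transgenic libraries, against 1749 and 1925 CPM in 5xFAD libraries. Summed oligodendrocyte, choroid plexus, microglial, astrocyte, neutrophil and lymphocyte markers overlapped between the groups. Summed endothelial, mural, monocyte, neuron and erythroid markers were higher in every Cd5l-transgenic library. The 8 endothelial markers, all detected, summed to 657, 1192 and 685 CPM in Cd5l-transgenic libraries, against 622 and 587 CPM in 5xFAD libraries. The 8 mural markers, all detected, summed to 279, 497 and 378 CPM, against 203 and 277 CPM in 5xFAD libraries. The 6 monocyte markers, with S100a4 listed at 0, summed to 40.1, 27.4 and 25.2 CPM, against 17.7 and 21.3 CPM in 5xFAD libraries. For the 8 neuron markers the sums were 6.63, 12.2 and 6.35 CPM, against 4.85 and 5.14 CPM in 5xFAD libraries. The part of RNA of other cell types or of RNA quality in these ratios was not tested. Without Cd5l-transgenic replicate 2 the difference in mean was 0.333 per 100 for mt-Rnr1, against 0.758 with it, and 0.544 for mt-Rnr2, against 1.06 with it. Both ratios were computed after values were seen. The sources used here do not say whether rRNA was removed or messengers were selected.

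**Figure D5:**
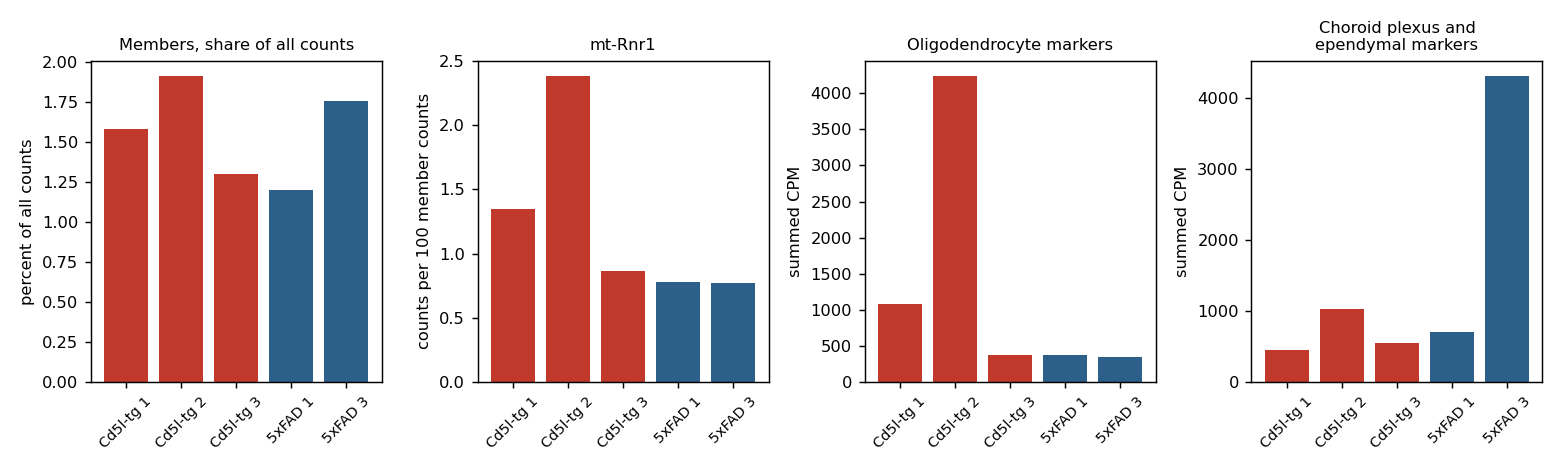
Bars give, for each library, the members' share of all counts in percent, mt-Rnr1 counts per 100 member counts, and the summed CPM of 8 oligodendrocyte and of 10 choroid plexus and ependymal markers; red bars are Cd5l-transgenic and blue bars 5xFAD libraries. The share is highest in Cd5l-transgenic replicate 2 (1.91%) and 5xFAD replicate 3 (1.76%), the libraries with the most oligodendrocyte (4239 CPM) and choroid plexus (4306 CPM) marker RNA.

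The protein genes outside the member list had low counts. mt-Nd3 had 2.55, 4.67 and 2.15 CPM in Cd5l-transgenic libraries, against 2.24 and 2.29 CPM in 5xFAD libraries. mt-Nd4l had 2.04, 2.73 and 2.66 CPM, against 2.41 and 3.81 CPM in 5xFAD libraries, and mt-Atp8 had 0.485, 0.721 and 0.908 CPM, against 0.712 and 1.04 CPM. mt-Nd3 and mt-Nd4l also lie in the chromosome 1 copy, as Gm28438 and Gm10222. Only annotated transcripts were searched, so an unannotated copy of mt-Atp8 would not have been found. The members made up 93.3% to 96.6% of all counts on the mitochondrial chromosome.

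The nuclear-encoded subunits of complexes I to V, complex II included, varied less as a sum than the members did. Their 78 genes, all tested, summed to 3788, 3894 and 3540 CPM in Cd5l-transgenic libraries, against 3918 and 3673 CPM in 5xFAD libraries, a range of 1.11-fold beside 1.49-fold for the summed members. The groups overlapped, 34 genes lay above 0 and 44 below, and 0 were called. The ratio of summed member counts to summed counts of the nuclear-encoded subunits was 4.16, 4.83 and 3.65 in Cd5l-transgenic libraries, against 3.22 and 4.69 in 5xFAD libraries. Again the 5xFAD mice lay at either side of most Cd5l-transgenic ones.

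Complex by complex the medians of the nuclear-encoded subunits lay close to that of all genes. Of 37 complex I genes 19 lay above 0 and 18 below, with a median log2 fold change of 0.00. Complex II, which has no mitochondrially encoded subunit, had 2 above and 2 below with a median of −0.01. Complex III had 3 above and 6 below, complex IV 3 and 8, and complex V 7 and 10, with medians of −0.03, −0.03 and −0.02. The smallest unadjusted p among the subunits was that of Atp5g1, which encodes the c subunit of the complex V ring. It had 15.0, 12.7 and 15.8 CPM in Cd5l-transgenic libraries, against 19.0 and 19.8 CPM in 5xFAD libraries, with a log2 fold change of −0.42 (SE 0.13) and an adjusted p of 0.999 in the edgeR test. All Cd5l-transgenic mice were lower, as they were for 10 of the 78 subunit genes, beside 8.69% of all genes tested. Only 1 of the 78 had all Cd5l-transgenic mice higher, beside 7.2% of all genes tested. It was Ndufs6, a complex I accessory subunit, at 16.1, 15.2 and 14.0 CPM, against 13.3 and 12.6 CPM in 5xFAD mice. Its adjusted p was 0.999 in the edgeR test.

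Among nuclear genes that copy, transcribe and process mitochondrial DNA and RNA, none was called. The 15 transcription and replication factors summed to 313, 304 and 328 CPM in Cd5l-transgenic libraries, against 332 and 329 CPM in 5xFAD libraries. Of them 4 lay above 0 and 11 below, with a median of −0.06, and Polrmt, the mitochondrial RNA polymerase, had a log2 fold change of −0.14. The 19 RNA processing and stability genes summed to 477, 458 and 483 CPM, against 495 and 498 CPM in 5xFAD libraries, with 3 above 0, 16 below and a median of −0.04. Grsf1, an RNA-binding protein of mitochondrial RNA granules, had 69.6, 66.2 and 64.2 CPM in Cd5l-transgenic libraries, against 74.9 and 76.1 CPM in 5xFAD libraries (log2 fold change −0.18, SE 0.07). Both sums stayed within a 1.09-fold range over all libraries, with all Cd5l-transgenic libraries lower and no test. By single gene this was so for 3 of the 15 and 3 of the 19, and the reverse for 0 of either. Of all genes tested, 8.69% had all Cd5l-transgenic libraries lower, 7.2% had all higher and 42.9% lay above 0. All Cd5l-transgenic libraries were also lower in the summed mitochondrial ribosomal protein genes, at 1233, 1230 and 1231 CPM, against 1289 and 1243 CPM in 5xFAD libraries. They were lower too in the summed assembly factors, at 400.2, 403.8 and 405.5 CPM, against 409.3 and 413.9 CPM in 5xFAD libraries. The median log2 fold change was −0.019 for the ribosomal protein genes and −0.016 for the assembly factors, beside −0.027 for all genes tested. With a filter of at least 5 CPM in 2 libraries, the list medians were 0.014 and 0.016, so these small offsets depend on the setting. Of the 31 assembly factors, 4 had all Cd5l-transgenic libraries lower and 2 had all higher.

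Other mitochondrial lists had 0 genes called each. Of the 77 mitochondrial ribosomal protein genes tested, 23 lay above 0 and 54 below with a median of −0.02, and Mrpl53 was listed at 0. All Cd5l-transgenic mice were lower for 13 of them, beside 8.69% of all genes tested, and higher for 2, beside 7.2%. The 31 assembly factors split 14 to 17, the 14 translation factors 6 to 8, the 16 matrix and membrane genes 5 to 11, and the 11 mitophagy genes 3 to 8, above and below 0. Pink1, the kinase that marks damaged mitochondria, had 126, 143 and 106 CPM in Cd5l-transgenic libraries, against 110 and 110 CPM in 5xFAD libraries. Its profile over the mice overlapped between genotypes. Of 6 biogenesis regulators 5 lay below 0, with a median of −0.15. Among them Ppargc1a, the coactivator of mitochondrial gene programmes, had 0.840, 1.13 and 1.21 CPM in Cd5l-transgenic libraries, against 0.983 and 5.70 CPM in 5xFAD libraries. Its log2 fold change of −1.66 came from 5xFAD replicate 3 and was 0.11 without that library.

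Some genes outside the mitochondrion had a profile over the mice closer to the summed members than some members had, though none was as close as mt-Nd1, mt-Cytb or mt-Co1. Likeness was measured as the root mean square distance between centred log2 CPM profiles over the 5 libraries, among 4159 genes that averaged 50 CPM or more. The closest was Plec, a cytoskeletal linker (distance 0.0540), with 57.1, 68.5 and 51.4 CPM in Cd5l-transgenic libraries, against 47.1 and 61.7 CPM in 5xFAD libraries. Nfix, a transcription factor (0.0824), Abhd2 (0.0904), Atp11a, a phospholipid flippase (0.102), and Slc1a3, the astrocyte glutamate transporter (0.109), came next. The members, which make up the sum, ranged from 0.0160 for mt-Nd1 to 0.172 for mt-Co2, with mt-Cytb at 0.0162 and mt-Co1 at 0.0249. With 5 libraries, such distances describe these mice and no more.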

How the data were processed

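Bulk RNA of CD11b-positive brain cells was measured in 5 libraries, 3 of Cd5l-transgenic 5xFAD mice and 2 of 5xFAD mice, grouped by title. The authors deposited 1 table of raw counts per Ensembl gene, with no normalisation. Per the submitters' processing notes, reads were placed on GRCm39 (mm39). Not given in the sources used here are the aligner, the counting tool, the strand setting and the treatment of reads with several matches. The column of Cd5l-transgenic replicate 3 carries its library name with 2 letter pairs swapped and was matched by letters and number.

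Counts were filtered with filterByExpr and scaled by TMM (factors 0.952 to 1.02). The test was the robust quasi-likelihood test of edgeR 4.0.16 under R 4.3.3 with genotype as the only term. Its code was run on simulated counts with a common dispersion for all genes. That run does not measure the power of the test in these data. Benjamini-Hochberg adjustment ran over all 17724 genes, and an adjusted p under 0.05 was a call. The biological coefficient of variation came to 0.26. Standard errors follow from each fold change and its F value. Alternatives used DESeq2 1.42.0, limma 3.58.1, other scaling, filters and libraries left out. Library totals, 30798377 to 34794617, limit counting error only. Library pairs differed beyond sampling noise, with chi-square per degree of freedom of at least 19.5. The labels number the mice, but do not say that they were bred or processed separately, so the spread may be partly technical. Copies were found with blastn 2.17.0 in GENCODE M21 transcripts. The labels also call the source brain tissue.

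The members, lists and tests were chosen with earlier results of these data known. Named genes are all members, up to 2 per mitochondrial list by smallest unadjusted p, and the 5 most alike in profile; other mitochondrial genes and the copies were added for their relation to the members.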

Additional observations from a re-analysis of the deposited data

How the results depend on the processing

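No member was called under any alternative run, the lowest adjusted p being 0.798. Genes called numbered 10 with the DESeq2 Wald test, 1 with no low-count filter, and 0 to 9 when each library was left out in turn, with 9 without 5xFAD replicate 1 and 2 without 5xFAD replicate 3. With Cd5l-transgenic replicate 2 and 5xFAD replicate 3 both left out, a setting chosen after seeing the data, 94 genes were called. In this setting and in those without either 5xFAD replicate, the lone 5xFAD library was assumed to vary like the other group. Over all lists together, those of cell type markers included, 4 genes were called with the DESeq2 Wald test, none a member. That count is not broken down by list, so it is no result about mitochondrial genes. It was 0 with each Cd5l-transgenic library left out in turn. The cause of these differences in calls was not tested.

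For 9 of 10 members, all but mt-Co2, the sign of the small log2 fold change rested on a single mouse. Left-out ranges were −0.11 to 0.35 for mt-Nd1, −0.16 to 0.49 for mt-Nd2, −0.23 to 0.41 for mt-Nd4, −0.19 to 0.20 for mt-Nd5, −0.031 to 0.14 for mt-Nd6, −0.071 to 0.34 for mt-Co1, 0.02 to 0.46 for mt-Co2, −0.38 to 0.31 for mt-Co3, −0.31 to 0.093 for mt-Atp6 and −0.14 to 0.29 for mt-Cytb. Without 5xFAD replicate 1, 8 members lay below 0; without 5xFAD replicate 3, all 10 lay above 0. Among nuclear genes the ranges were −2.42 to 0.11 for Ppargc1a (0.072 with both libraries left out), −0.13 to 0.029 for Sdhb and −0.10 to 0.0013 for Sdhc. The summed share ranged from −0.158 to 0.398 percentage points and the log2 ratio to nuclear-encoded subunits from −0.166 to 0.379. The log2 of mt-Nd6 over the other members ranged from −0.238 to 0.133 and the complex I share from −1.20 to 0.231 percentage points. With both libraries left out, the complex I share differed by 0.502 and the complex IV share by −0.0018 percentage points.

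With a replicate block (calling 0 genes) the log2 fold changes were −0.044 for mt-Nd1, −0.017 for mt-Nd2, −0.081 for mt-Nd4, −0.047 for mt-Nd6, −0.027 for mt-Co1, −0.034 for mt-Co2 and −0.082 for mt-Cytb. Deviations of same-numbered mice correlated at 0.129 and −0.240, and the labels name no link between them, so the main comparison had no block. For mt-Nd5 the value was 0.0093 with DESeq2 size factors and with the DESeq2 Wald test, 0.0047 with upper-quartile factors, 0.0021 with limma-voom, 0.020 with a filter of 5 CPM and 0.14 with both libraries left out. For mt-Co3 it was 0.22 with both left out and 0.027 with the copies' counts added, and for mt-Atp6 0.039 with the copies added.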
